A study of Sus scrofa with 6 samples.

Results

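Caveolae are flask-shaped pits of the plasma membrane that are built from caveolins and cavins, and other endocytic vesicles are shaped and cut off by BAR-domain proteins, EHD ATPases and dynamins. Caveolae are abundant in endothelial cells, adipocytes and smooth muscle. The 5 genes described here encode the caveolins CAV1 and CAV2, the N-BAR protein BIN1, the dynamin DNM3 and the EHD ATPase EHD4. All probe sets of the array whose only gene symbol is one of these were taken, which gave 5 of 6765 genes and 8 of 24123 probe sets, with 3 for CAV1, 2 for CAV2 and 1 for each of the other genes. The genes were proposed with the differences between the cell lines on these same arrays known. Their differences are therefore given as a description and without a test.

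IPEC-J2 and IPEC-1 are untransformed porcine lines of small intestinal epithelium that became immortal in culture. RNA from 3 cultures of IPEC-J2 and 3 cultures of IPEC-1, all untreated and grown on membrane inserts in medium with fetal calf serum and EGF, was hybridised to 6 Affymetrix Porcine Genome Arrays. The labels give 7 days on the inserts and the methods 10 days. The labels also give the same cell bank number to both lines, whereas the methods give 2 different ones. Each line is 1 established culture, so the comparison is of these lines and not of animals or gut segments.

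Signals are log2 values per probe set, with a floor of exactly 4.00 on every array that carries no order. The log base is not stated and was taken from this floor, the log2 of 16. Between 40.5 and 48.3% of the probe sets lay at the floor, most of them on the array of IPEC-J2 replicate 1, which also had the lowest 75th percentile (8.31, against 8.51 to 8.56 on the other arrays). Where a line was at the floor on all 3 arrays, a fold was given only as a lower bound. For this, a background level was used, which was 7.78 in IPEC-J2 and 7.85 in IPEC-1. It is the 95th percentile of the signals that 1 array gives above the floor where both remaining arrays of that line are at it. If values at the floor are counted as well, the level is 5.10 in IPEC-J2 and 5.02 in IPEC-1. The labels of IPEC-J2 replicate 3 and IPEC-1 replicate 1 share a culture note (A), and those of IPEC-J2 replicate 1 and IPEC-1 replicate 2 share another (B), so differences are also given within each note. The number of arrays limits the precision, and an exact permutation test of 3 against 3 arrays cannot give a p under 0.1.

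The caveolin genes ran in opposite directions. CAV1, the caveolin without which most cells form no caveolae, gave a signal in IPEC-J2, with none above the floor in IPEC-1. CAV2, which forms complexes with CAV1, was lower in IPEC-J2 but had a signal on every array of both lines. BIN1 was higher in IPEC-J2, and EHD4 was slightly lower. DNM3 was also higher in IPEC-J2, but its signal lay below the background levels on every array.

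The probe set Ssc.16989.1.A1_at of CAV1 had log2 signals of 7.94, 8.12 and 8.43 in IPEC-J2 replicates 1, 2 and 3, and 4.00 on all 3 IPEC-1 arrays. The mean in IPEC-J2 was 8.16 ± 0.25 (SD, n = 3), which put CAV1 at least 1.24-fold higher there, or at least 8.84-fold higher when the level of IPEC-1 is set to 5.02. Every IPEC-J2 array was above both levels, and the groups did not overlap. The second probe set, Ssc.12842.1.S1_at, had 7.35, 7.69 and 7.92 in IPEC-J2 and 4.00 on all 3 arrays of IPEC-1. Its IPEC-J2 mean of 7.65 ± 0.29 (SD, n = 3) lay below the level of 7.85, and it gives a lower bound of 6.20-fold only with the level of 5.02.

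The third CAV1 probe set, Ssc.12842.1.S2_at, was the dimmest. It had 4.00, 6.05 and 6.24 in IPEC-J2 replicates 1, 2 and 3 and was at the floor on the 3 IPEC-1 arrays. The lines shared the floor here, since IPEC-J2 replicate 1 also stood at it. With the floor taken as a signal, the log2 difference was 1.43, and 2.15 without IPEC-J2 replicate 1. The same IPEC-J2 array was the lowest, and replicate 3 the highest, in all 3 CAV1 probe sets. Averaged over the 3 probe sets, CAV1 had 6.43, 7.29 and 7.53 in IPEC-J2 and the floor in IPEC-1, so the average is set partly by the dim probe set.

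CAV2 had a signal in both cell lines. Ssc.31165.1.S1_at, its brighter probe set, had 9.49, 9.94 and 9.81 in IPEC-J2 replicates 1, 2 and 3, and 10.95, 11.46 and 11.79 in IPEC-1. All IPEC-J2 values lay at least 1.01 below those of IPEC-1, and the mean was 3.15-fold lower in IPEC-J2 (log2 difference -1.65, SE 0.257). The probe set Ssc.1291.1.A1_at had 9.36, 9.43 and 9.38 in IPEC-J2 and 10.54, 11.17 and 11.22 in IPEC-1. It was 3.00-fold lower in IPEC-J2 (log2 difference -1.59, SE 0.211), so both probe sets gave nearly the same difference. IPEC-1 replicate 1 was the lowest of the IPEC-1 arrays in both.

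The spread of CAV2 is given for each line. For Ssc.1291.1.A1_at the SD was 0.0361 in IPEC-J2 and 0.379 in IPEC-1 (n = 3 each). Among probe sets above the floor on all 3 arrays of a line, 95.9% varied more than this one in IPEC-J2 and 10.7% varied more in IPEC-1. For Ssc.31165.1.S1_at, 37.8% varied more in IPEC-J2 and 8.10% in IPEC-1. The median SD of a probe set was 0.182 in IPEC-J2 and 0.171 in IPEC-1. Whether the spread differs between the lines was not tested.

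**Figure D1:**
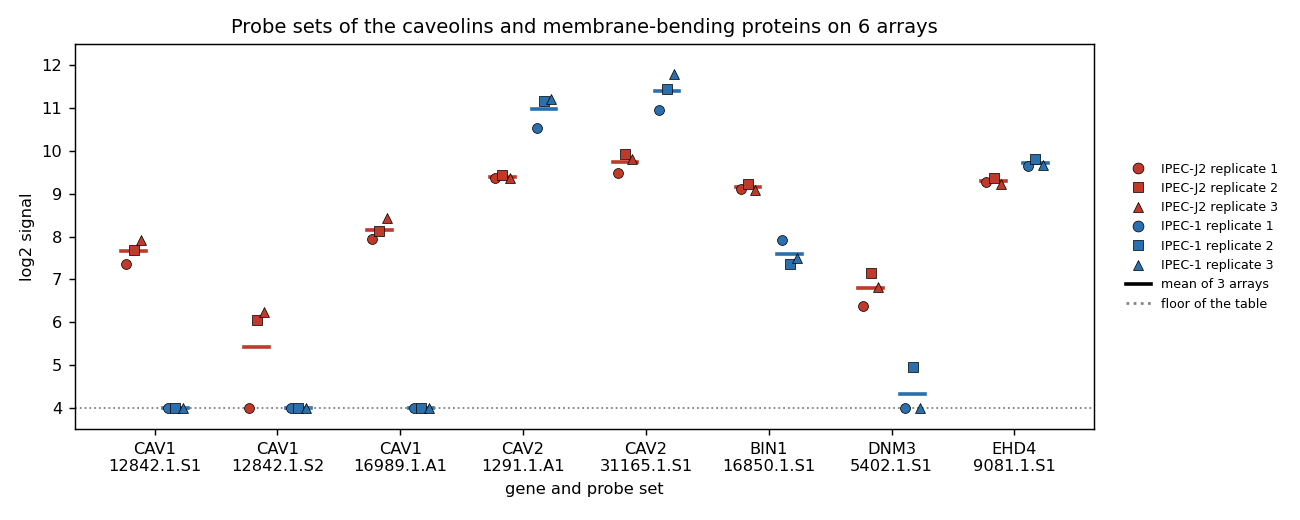
Log2 signal (vertical axis) of the 8 probe sets of CAV1, CAV2, BIN1, DNM3 and EHD4 on the 6 arrays, with IPEC-J2 in red on the left and IPEC-1 in blue on the right of each pair; symbols mark the replicates, lines the mean of 3 arrays and the dotted line the floor at 4.00. CAV1 lies at the floor throughout IPEC-1, and CAV2 lies between 9.36 and 9.94 in IPEC-J2 and between 10.54 and 11.79 in IPEC-1.

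BIN1 senses and bends membranes with its N-BAR domain and shapes T-tubules in muscle. Its probe set Ssc.16850.1.S1_at had 9.12, 9.24 and 9.10 in IPEC-J2 replicates 1, 2 and 3, and 7.91, 7.35 and 7.49 in IPEC-1. The lowest IPEC-J2 value lay 1.19 above the highest IPEC-1 value, which was that of IPEC-1 replicate 1. BIN1 averaged 9.15 ± 0.08 in IPEC-J2 and 7.58 ± 0.29 in IPEC-1 (SD, n = 3 each) and was 2.97-fold higher (log2 difference 1.57, SE 0.177). The mean of IPEC-1 lay below the level of 7.85, against which BIN1 was 2.47-fold higher. As for CAV2, the IPEC-J2 arrays lay closer together, and 84.6% of the probe sets above the floor varied more than BIN1 in IPEC-J2, against 20.6% in IPEC-1.

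DNM3 is a dynamin, a GTPase that severs the necks of budding vesicles. The probe set Ssc.5402.1.S1_at had 6.39, 7.16 and 6.82 in IPEC-J2, while IPEC-1 replicates 1 and 3 were at the floor and replicate 2 had 4.96. The groups did not overlap, with a log2 difference of 2.47 (SE 0.348) when the floor is taken as a signal. All 6 values lay below the levels of 7.78 and 7.85, so no fold is given. DNM3 was thus dim in both lines.

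EHD4 belongs to the ATPases that remodel endosomal and caveolar membranes. Its probe set Ssc.9081.1.S1_at had 9.28, 9.37 and 9.22 in IPEC-J2 and 9.65, 9.82 and 9.67 in IPEC-1. The arrays of both lines lay close together, and the groups were separated by 0.28. EHD4 was 1.34-fold lower in IPEC-J2 (log2 difference -0.42, SE 0.113). Of the 16322 probe sets compared, 53.3% had a larger difference in either direction than EHD4, against 9.81% for BIN1 and 9.04% for the brighter CAV2 probe set. CAV1 and DNM3 were not ranked, since their differences rest on values at the floor. The difference of EHD4 was therefore below the median size over these probe sets. They include probe sets at the floor on some arrays, whose differences take the floor as a signal.

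Within culture note A, the log2 difference was 1.19 for BIN1, -1.14 for the brighter CAV2 probe set and -0.43 for EHD4. Within note B, which holds the dim IPEC-J2 array, it was 1.77 for BIN1, -1.97 for CAV2 and -0.54 for EHD4. The direction was the same in both notes. For Ssc.16989.1.A1_at of CAV1, the IPEC-J2 array had 8.43 in note A and 7.94 in note B, each against the floor in IPEC-1, so no size is given. CAV2 and BIN1 had the smaller difference in note A, where the IPEC-1 array is replicate 1. With each array centred on its 75th percentile, the differences were 1.63 for BIN1, -1.60 for CAV2 and -0.37 for EHD4, each within 0.06 of the value without centring. Centring shifts each array by a constant, so the difference of every probe set moved by the same amount.

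**Figure D2:**
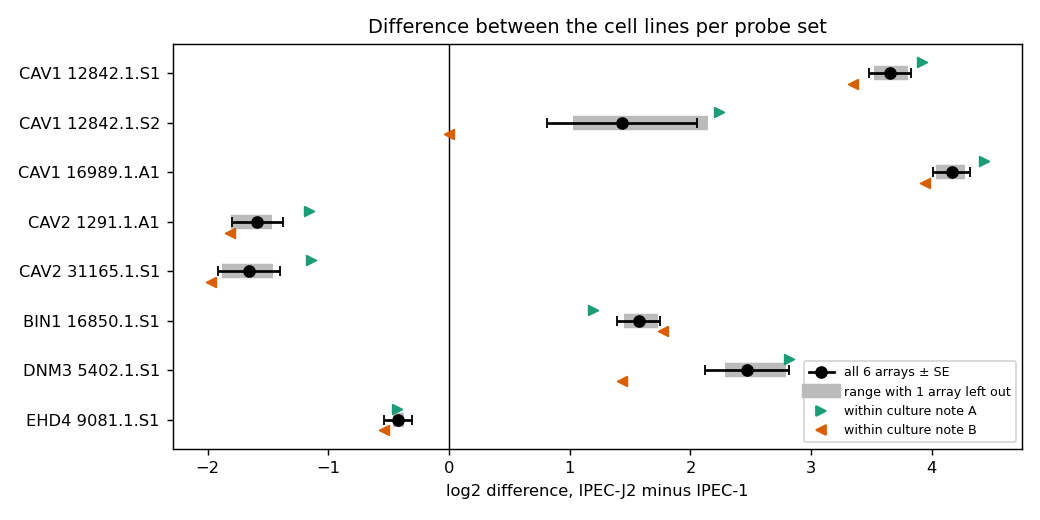
Log2 difference, IPEC-J2 minus IPEC-1 (horizontal axis), of each member probe set. Black points are the difference over all 6 arrays with its SE, grey bars the range with 1 array left out, and triangles the difference within culture notes A (pointing right) and B (pointing left); only Ssc.12842.1.S2_at of CAV1 reaches 0, within note B, and the sizes drawn for CAV1 and DNM3 take the floor as a signal.

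By limma across the 16322 probe sets above the floor on at least 1 array, 19.0% passed an adjusted p under 0.05 (8.79% higher and 10.2% lower in IPEC-J2). All 8 member probe sets were among those compared, and their calls are not given, since this contrast chose the genes. The 3 values of one line lay above those of the other in 7 of the 8, against 41.3% of all probe sets. For the same reason nothing is read from this count.

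CAV1 is also an abundant gene of endothelial cells, fibroblasts, smooth muscle and adipocytes, so markers of these cells were set beside it. Of 5 endothelial markers with a value, CDH5, VWF, KDR and TEK gave no signal above the floor, and PECAM1 was at the floor in IPEC-J2 replicates 1 and 3 with 4.87 in replicate 2, against 5.88, 5.65 and 5.71 in IPEC-1 (lower in IPEC-J2, adjusted p = 0.0144 from limma). The PECAM1 values are means over 2 probe sets, and all of them lay below the levels of 7.78 and 7.85. The summed log2 signal of the list ranged from 20.0 to 20.9 in IPEC-J2 and from 21.7 to 21.9 in IPEC-1, with 20.0 when all 5 genes are at the floor. Of 8 fibroblast markers, COL3A1, DCN and LUM gave none either, and the sum was 50.8 to 51.7 in IPEC-J2 and 47.2 to 48.1 in IPEC-1. THY1 differed most among them, with 9.55 in IPEC-J2 and the floor in IPEC-1. The higher sum in IPEC-J2 came from this gene, the only one of the list that passed (adjusted p = 1.6e-05 from limma). VIM had 11.48 in IPEC-J2 and 12.86 in IPEC-1. PDGFRB had 4.71 in IPEC-J2, with 1 array at the floor, and 5.55 in IPEC-1. COL1A2 (5.91 in IPEC-J2 and 5.94 in IPEC-1) and FN1 (7.46 in IPEC-J2 and 7.38 in IPEC-1) differed little. Of 4 smooth muscle markers, ACTA2, CNN1 and DES were at the floor throughout and TAGLN had 6.12 in IPEC-J2 and 9.34 in IPEC-1 (sum 16.0 to 19.3 in IPEC-J2 and 20.1 to 22.1 in IPEC-1). The TAGLN mean in IPEC-J2 includes replicate 3 at the floor, and the gene did not pass (adjusted p = 0.0796 from limma). Of 4 adipocyte markers, FABP4 and LPL were at the floor, PPARG averaged 9.63 in IPEC-J2 and 9.56 in IPEC-1, and ADIPOQ was above the floor only in IPEC-J2 replicate 2, with 5.69 (sum 21.5 to 23.5 in IPEC-J2 and 21.1 to 21.9 in IPEC-1). All 8 epithelial markers had a signal in IPEC-J2, among them EPCAM with 13.55 in IPEC-J2 and 13.39 in IPEC-1 (sum 90.6 to 92.6 in IPEC-J2 and 78.5 to 84.6 in IPEC-1). Of the 8, 3 were higher, 1 was lower and 4 did not pass. The higher sum in IPEC-J2 came mostly from VIL1 (log2 difference 6.90, adjusted p = 0.0154 from limma). CLDN7 was higher (11.53 in IPEC-J2 and 10.44 in IPEC-1, adjusted p = 0.0154 from limma). CLDN3 was also higher (adjusted p = 0.000114 from limma), but its IPEC-J2 mean of 6.14 lay below the level of 7.78. CDH1 and KRT8 overlapped between the lines. KRT19 was lower in IPEC-J2, with 12.28 in IPEC-J2 and 13.08 in IPEC-1 (adjusted p = 0.00363 from limma), and KRT18 had 12.29 in IPEC-J2 and 12.59 in IPEC-1 (adjusted p = 0.125 from limma). In IPEC-1, CLDN3 was at the floor on all 3 arrays and the brush border gene VIL1 had 8.45, 4.00 and 8.53, against 13.83, 14.04 and 13.81 in IPEC-J2. The authors describe VIL1 as missing from this array, whereas the platform annotation used here assigns it 1 probe set. The part of these markers in the CAV1 difference was not tested.

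CAV1 and CAV2 lie side by side in the pig genome, with no protein-coding gene between them in the RefSeq annotation of Sscrofa11.1. Their nearest neighbours with a value, 3 on each side, had not been used to choose them. TES, which encodes a focal adhesion protein and is next to CAV2, had 10.20, 10.14 and 9.98 in IPEC-J2 and 10.04, 10.23 and 10.34 in IPEC-1, with overlapping groups (log2 difference -0.10, SE 0.121, adjusted p = 0.571 from limma). CAPZA2, a subunit of the actin capping protein on the other side of CAV1, with 1 gene between, had 8.90, 9.34 and 9.30 in IPEC-J2 and 9.05, 9.15 and 9.22 in IPEC-1, which also overlapped (log2 difference 0.04, SE 0.148, adjusted p = 0.865 from limma). The differences of these genes were thus within the spread of the cultures.

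Further out, MDFIC, a regulator of transcription with 2 genes between it and CAV2, was higher in IPEC-J2, by 2.05-fold. It had 11.70, 11.54 and 11.68 in IPEC-J2 and 10.56, 10.58 and 10.67 in IPEC-1 (log2 difference 1.04, SE 0.0931, adjusted p = 0.00143 from limma), with the groups well apart. IFRD1 had a mean of 7.51 ± 0.57 in IPEC-J2 and 7.26 ± 0.32 in IPEC-1 (SD, n = 3 each, adjusted p = 0.589 from limma). CTTNBP2 and the chloride channel gene CFTR were at the floor throughout. Of the 4 neighbours that could be compared, 1 passed the test, and 25.8% of all 5513 genes compared did.

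**Figure D3:**
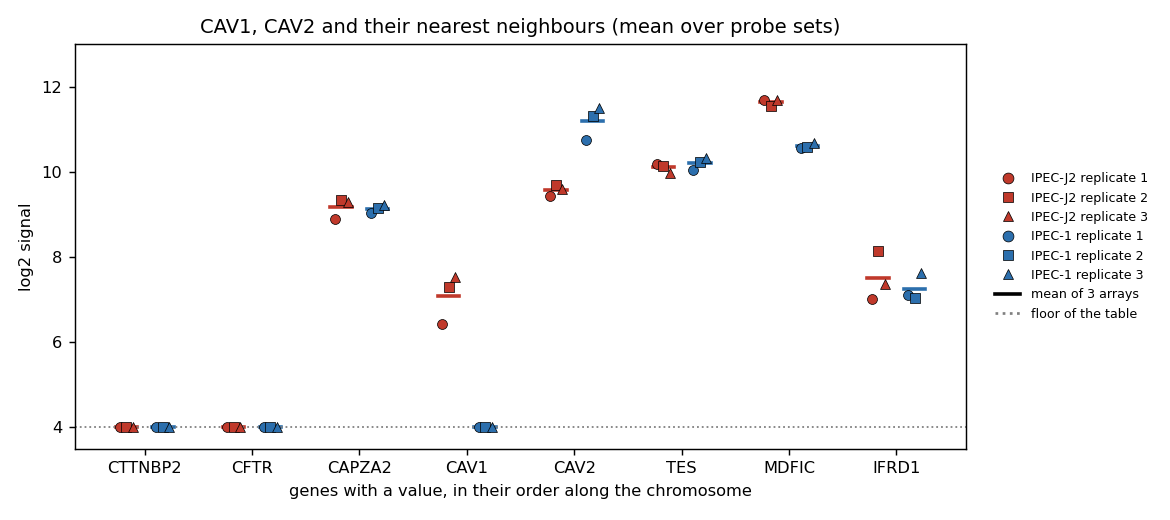
Log2 signal (vertical axis, mean over the probe sets of a gene) of CAV1, CAV2 and the 3 nearest genes with a value on each side, in their order along the chromosome, with IPEC-J2 in red on the left and IPEC-1 in blue on the right of each pair; lines mark the mean of 3 arrays. CAPZA2 and TES overlap between the lines, CAV1 and MDFIC are higher and CAV2 is lower in IPEC-J2.

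The other genes of caveolae and membrane bending were then compared, from a list of 94 written for their roles. Of these, 46 had a value, 43 had a signal above the floor on at least 1 array, and SH3GL3, FES and CLTB were at the floor throughout. By limma on gene means, 3 were higher and 3 lower in IPEC-J2, and 37 did not pass. This is 14.0%, against 25.8% of all 5513 genes, of which 12.0% were higher and 13.8% lower. The groups did not overlap in 14 of the 43 genes, against 47.5% of all genes. The median log2 difference was -0.07 over the list and -0.05 over all genes. The share that passed was thus below that of all genes, and nothing is called particular to the list.

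Of the cavins, which coat caveolae together with the caveolins, only CAVIN2 had a value. It stood at the floor on 5 of the 6 arrays and had 4.73 in IPEC-J2 replicate 2, so no cavin had a usable signal here. CAVIN1 and the other cavins, CAV3, EHD1, EHD2 and EHD3 were not analysed here. The PACSINs are F-BAR proteins that bind dynamin and, in the case of PACSIN2, bend caveolar membranes. PACSIN2 had 11.18, 11.49 and 11.25 in IPEC-J2 and 10.62, 10.56 and 10.91 in IPEC-1 and was 1.53-fold higher (log2 difference 0.61, SE 0.145, adjusted p = 0.0318 from limma). The same values did not pass in the fit across probe sets (adjusted p = 0.0501 from limma). PACSIN1 had no signal above the floor in IPEC-J2 and had 6.23, 6.30 and 4.00 in IPEC-1 (adjusted p = 0.148 from limma).

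Among the dynamins, DNM1L, which cuts mitochondria, was the only relative of DNM3 with a value. It averaged 8.33 ± 0.57 in IPEC-J2 and 7.72 ± 0.50 in IPEC-1 (SD, n = 3 each), and the groups overlapped (adjusted p = 0.29 from limma). Its brighter probe set, Ssc.6842.2.A1_a_at, had 9.74, 9.90 and 10.03 in IPEC-J2 and 9.42, 8.67 and 9.04 in IPEC-1. These did not overlap (log2 difference 0.85, adjusted p = 0.0531 from limma across probe sets). The dimmer probe set of DNM1L overlapped between the lines (adjusted p = 0.669 from limma across probe sets). Of the 8 N-BAR and related proteins with a signal, 1 was higher. SH3GL1, which encodes an endophilin that acts with dynamin at vesicle necks, had 9.04, 9.41 and 9.08 in IPEC-J2 and 8.40, 8.62 and 8.50 in IPEC-1, and was 1.59-fold higher (log2 difference 0.67, SE 0.138, adjusted p = 0.021 from limma). BIN2, a relative of BIN1, had 4.00, 5.38 and 4.91 in IPEC-J2 and the floor in IPEC-1 (adjusted p = 0.169 from limma). The other 6 had log2 differences between -0.84 for APPL2 and 0.08 for ARFIP1.

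The F-BAR and I-BAR proteins went both ways, with 1 of 7 higher and 1 lower. BAIAP2L1, an I-BAR protein of actin-rich protrusions, had 9.88, 10.19 and 9.92 in IPEC-J2 and 9.27, 8.78 and 9.36 in IPEC-1 and was 1.82-fold higher (log2 difference 0.86, SE 0.191, adjusted p = 0.0266 from limma). FNBP1L, an F-BAR protein that links the membrane to actin assembly, had 10.26, 10.23 and 10.35 in IPEC-J2 and 11.27, 11.59 and 11.22 in IPEC-1. In IPEC-J2 it was 2.11-fold lower (log2 difference of -1.08 with an SE of 0.130, adjusted p = 0.00405 from limma), and the groups were separated by 0.87.

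The flotillins form membrane domains apart from caveolae. FLOT1 was lower in IPEC-J2, with gene means of 6.30, 6.62 and 6.49 in IPEC-J2 and 8.48, 8.52 and 8.43 in IPEC-1 (log2 difference -2.01, SE 0.113, adjusted p = 0.000239 from limma). Its 2 probe sets differed in size. The brighter one, Ssc.2205.1.S1_a_at, had 8.60, 9.23 and 8.97 in IPEC-J2 and 9.41, 9.50 and 9.42 in IPEC-1, a 1.42-fold difference that did not pass (adjusted p = 0.122 from limma across probe sets). The other, Ssc.2205.3.S1_at, stayed at the floor in IPEC-J2 and had 7.54, 7.53 and 7.43 in IPEC-1, below the level of 7.78. The call of FLOT1 thus rests on the dimmer probe set. FLOT2 overlapped between the lines.

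Of 13 clathrin coat and adaptor genes with a signal, 12 did not pass and 1 was lower. HIP1R, which joins clathrin coats to actin, had 8.53, 8.57 and 8.68 in IPEC-J2 and 9.21, 9.59 and 9.12 in IPEC-1 and was 1.64-fold lower (log2 difference -0.71, SE 0.150, adjusted p = 0.0228 from limma). The clathrin heavy chain CLTC averaged 9.22 ± 0.33 in IPEC-J2 and 9.12 ± 0.21 in IPEC-1 (SD, n = 3 each, adjusted p = 0.756 from limma). The adaptor subunit AP2M1 averaged 11.07 ± 0.23 in IPEC-J2 and 11.62 ± 0.14 in IPEC-1 (SD, n = 3 each, adjusted p = 0.051 from limma). None of the 4 sorting nexins and none of the 4 caveolar partners and kinases with a signal passed, among them NOS3 with 6.64, 6.32 and 6.60 in IPEC-J2 and 4.00, 4.00 and 6.28 in IPEC-1 (adjusted p = 0.11 from limma). PACSIN2, SH3GL1, BAIAP2L1 and HIP1R lost their calls without single arrays, and all 4 did so without IPEC-J2 replicate 3 (adjusted p = 0.0592 to 0.0905 from limma) and without IPEC-1 replicate 1 (adjusted p = 0.0519 to 0.0932 from limma). FNBP1L, FLOT1 and MDFIC passed without any 1 array, but the FLOT1 call rests on a dim probe set at the floor throughout IPEC-J2.

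**Figure D4:**
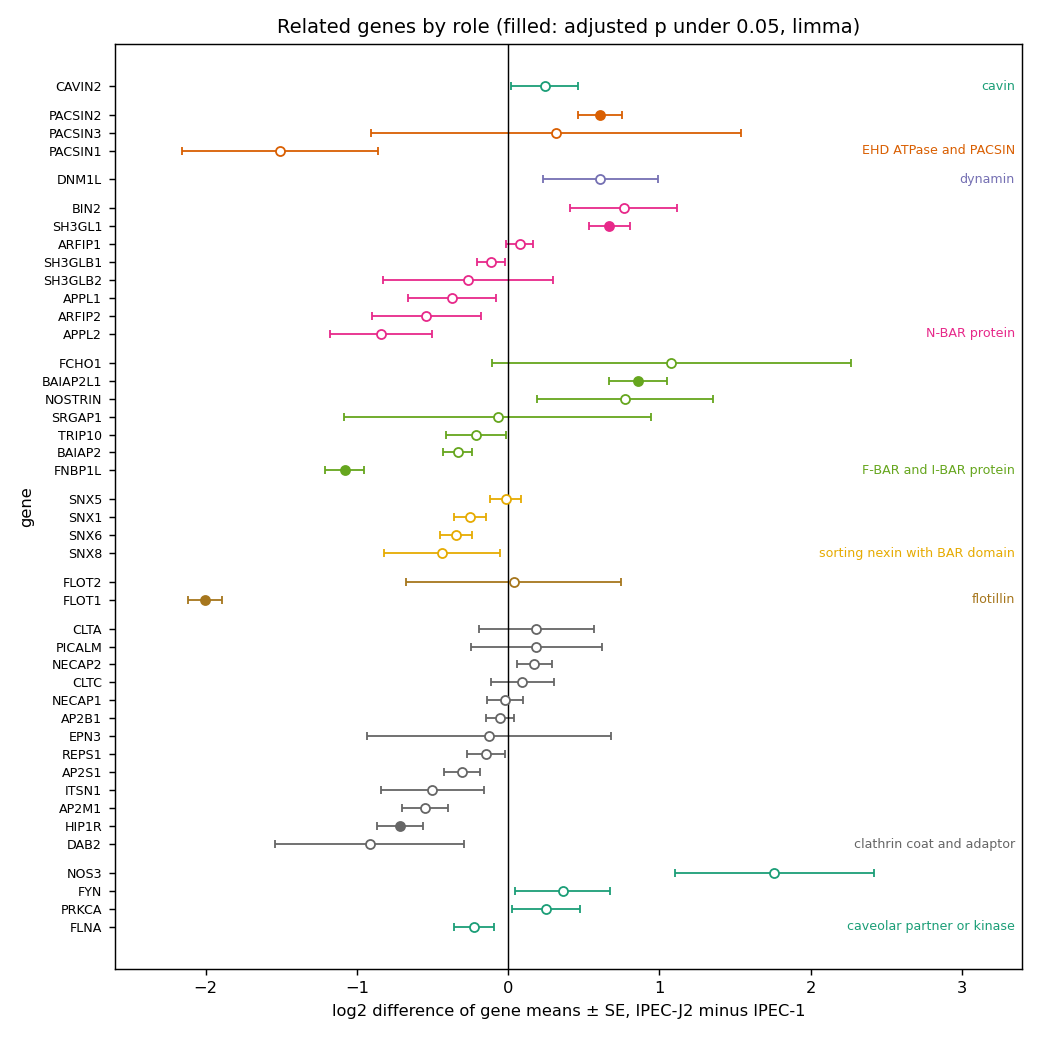
Log2 difference of gene means with its SE, IPEC-J2 minus IPEC-1 (horizontal axis), of the 43 related genes with a signal, grouped by role. Filled points passed an adjusted p under 0.05 from limma: PACSIN2, SH3GL1 and BAIAP2L1 to the right of 0, and FNBP1L, FLOT1 and HIP1R to the left.

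The genes whose signals were most like those of the brightest probe set of each member over the 6 arrays were listed by Pearson's r, among 6752 or 6753 named probe sets and with no test. The 6 arrays fall into the 2 cell lines, so r mostly gives the gap between the lines and a similar order of the arrays. For CAV1 they were GDPD5, NSD1 and TGFA (r = 0.9998, 0.9997 and 0.9997), none of them above the floor in IPEC-1. TGFA, a ligand of the EGF receptor, had 8.20, 8.46 and 8.61 in IPEC-J2, and replicate 1 was the lowest and replicate 3 the highest, as for CAV1. For CAV2 they were PRPSAP1, KDM5A and CCDC24 (r = 0.9994, 0.9984 and 0.9971). For BIN1 they were PDLIM1, SDHB and LDHB (r = 0.9983, 0.9978 and 0.9965), and LDHB, a subunit of lactate dehydrogenase, had 12.96, 13.12 and 13.12 in IPEC-J2 and 12.12, 11.70 and 11.80 in IPEC-1. For DNM3 they were ACSL1, SIDT2 and SPATS2L (r = 0.9983, 0.9972 and 0.9966). ACSL1, which activates long-chain fatty acids, had a signal on all arrays, with 8.72, 9.17 and 8.98 in IPEC-J2 and 6.95, 7.75 and 7.09 in IPEC-1. For EHD4 they were DDX47, HMGN1 and NISCH (r = 0.9963, 0.9958 and 0.9957).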

How the data were processed

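The authors deposited 1 log2 signal per probe set and array, for which the submitters' processing notes name GCOS 1.1.1 and PLIER. The methods name another GCOS version, scaling of whole arrays, background correction, normalization and a summary per probe set. Which normalization between arrays these values had is not stated, and none was added. A normalization that leaves arrays of unequal brightness shifts small differences. Groups and replicate numbers came from the titles. Control probe sets (124) were left out. Of the rest, 10069 had 1 gene symbol in the platform annotation, 198 several and 13732 none. Probe sets with 1 symbol were averaged to 6765 genes for the related and neighbouring genes.

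Features at the floor on every array (7677 probe sets, 1252 genes) were left out, since they have no spread. The rest went into limma 3.58.1 (functions lmFit and eBayes, default settings, two-sided, run in R 4.3.3), with Benjamini-Hochberg adjustment over all features compared, at a threshold of 0.05. On simulated signals of the 16322 probe sets, 54 of 100 changes of 1 and 90 of 100 changes of 2 on the log2 scale were recovered. Of 160 calls, 16 were false. The changes were placed only in probe sets with a high mean signal and without a large spread. The recovered shares therefore do not cover dim probe sets or those near the floor. According to the methods the experiments were independent. A p-value here reflects the spread of these cultures alone. The genes, lists, neighbours and tests were chosen with earlier results of these data known. Named are all probe sets of the 5 genes, the related genes that passed, the 3 genes most like each member (above the floor on at least 3 arrays) and the 3 nearest neighbours on each side. Other genes are named as members of the lists, and were picked after their values were seen. No sequences are shown.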

Additional observations from a re-analysis of the deposited data

How the results depend on the processing

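The 8 member differences did not change sign under the settings tried, and Ssc.12842.1.S2_at of CAV1 was 0 within culture note B. The sizes for CAV1 and DNM3 take the floor as a signal. With an offset of 16 on the linear scale, the log2 difference was 3.24 for Ssc.16989.1.A1_at of CAV1, 2.76 for Ssc.12842.1.S1_at and 1.80 for DNM3. With 1 array left out, the related genes numbered 0 to 4 higher and 2 to 4 lower, and the probe sets 722 to 1569 higher and 870 to 1300 lower, against 1435 and 1660 over all arrays. The lower related genes numbered 5 with floor features kept and with trend and robust moderation, 6 with quantile normalization, a mean signal of at least 6, the culture note as a random block or the count per probe set, and 8 by the methods' t-test without adjustment. That t-test gave 2387 higher and 2934 lower probe sets, and after Benjamini-Hochberg adjustment 1 higher related gene. By the count per probe set, 2 related genes were higher, and PACSIN2 was not among them. With the replicate number as a block, 465 probe sets were higher and 493 lower, and 0 related genes were higher. Whether the numbers pair the cultures was not tested. Arrays of the same number share no culture note, and the correlations of their deviations lay between -0.12 and 0.02. Arrays that share a culture note had 0.05 (A) and 0.17 (B). The remaining arrays, IPEC-J2 replicate 2 and IPEC-1 replicate 3, share no note and had 0.13. With the notes and the remaining arrays as 3 fixed pairs, chosen after seeing the data, 864 probe sets were higher and 776 lower. Without the arrays of note B, also chosen after seeing the data, 1241 were higher and 951 lower, which makes 56.6% of those that passed higher. The cause of these changes was not tested, and the comparison without note B also has fewer arrays. Signals near the floor limit CAV1 and DNM3 in IPEC-1.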

Other observations

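Some related genes passed for a single probe set and not for the mean of the gene. They were picked with their values in view. DAB2, an endocytic adaptor, had 10.10, 10.28 and 10.21 in IPEC-J2 and 11.29, 10.99 and 11.12 in IPEC-1 for the probe set Ssc.2807.1.A1_at (log2 difference -0.94, SE 0.130, adjusted p = 0.00835 from limma), and the groups did not overlap. Its other 2 probe sets did not pass (adjusted p = 0.497 and 0.59 from limma). SNX6, a retromer sorting nexin with a BAR domain, had 9.28, 9.63 and 9.45 in IPEC-J2 and 10.11, 9.97 and 10.31 in IPEC-1 for Ssc.25370.1.S1_at (log2 difference -0.68, SE 0.155, adjusted p = 0.0367 from limma), and 3 other probe sets did not pass. APPL2, an endosomal adaptor with a BAR domain, had 9.93, 10.21 and 10.09 in IPEC-J2 and 10.54, 10.93 and 11.00 in IPEC-1 for Ssc.14851.1.S1_at (log2 difference -0.75, SE 0.171, adjusted p = 0.0368 from limma). Which probe set of a gene reports its transcripts was not tested.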
